A study of Mus musculus with 8 samples.

Results

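The protein-coding genes most covered by BRG1 regions were 200 of the 12965 protein-coding genes of at least 10 kb on chromosomes 1 to 19. They were chosen by the percent of gene body bases, from the annotated start to the annotated end, that lay inside regions of at most 100 kb in the authors' list of BRG1-enriched regions. The 200 genes with the highest percent were kept, with ties broken by longer gene and then by symbol. Coverage of the gene body is therefore what selected the members, and it is given below as a description only.

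The regions came from ChIP-seq with an anti-Brg1 antibody on adult mouse hearts after myocardial infarction (MI). Per the sample labels, all mice were C57BL/6 with an age of 10 to 12 weeks. The published methods give the wild-type mice as C57BL/6J and an older age. The Tβ4-primed group had received thymosin β4 (Tβ4) by intraperitoneal injection at 12 mg per kg each day for 1 week, and the PBS-primed group had received the vehicle. MI was then induced by tying off the left anterior descending artery for good. Further injections followed on days 0 and 2, and whole hearts were collected on day 4. Each group had 2 BRG1 ChIP libraries and 2 input libraries. The list used here describes the Tβ4-primed hearts over their input. The PBS-primed hearts were not analysed here.

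BRG1 is the motor protein of a family of chromatin remodellers, known as SWI/SNF, that change how DNA is wrapped around histones. Such complexes act at promoters and enhancers, and BRG1 is required for normal development of the heart and is expressed again in the stressed adult heart. A region in the list is a stretch of the genome in which the authors' caller reported enrichment of ChIP signal over input, and it does not say that BRG1 touches every base of it. The exact call behind the regions is not known.

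The list gives where each region starts and ends, with no height or score, and 4 of its regions exceeded 100 kb and were left out. It names no replicate, so no value below has a replicate error, and the depth behind it is unknown. The tissue could not be checked by expression, since a list of regions holds no expression values. On the 19 autosomes, 492131 regions had a median length of 600 bp and covered 25.7% of the bases.

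The start of a gene is where transcription factors and remodellers are most often studied, so the sequence before the start is shown for 3 members. They were the highest ranked members whose window from 250 bases before to 50 bases after the start lay wholly inside a region and whose 250 bases before the start held no annotated exon. The condition on exons was added after the data were seen, and it passed over 4933430H15Rik, at rank 5. Each sequence is the 250 bases before the start in mm9, read 5′ to 3′ in the direction of transcription. Capitals mark matches, on either strand, to 4 short motifs. The motif of C/EBP factors is spelled TTGCNNAA, where N is any base. The TATA box near many gene starts is spelled TATAAA. The motif of the Sp family of transcription factors is spelled GGGCGG. The E-box motif of basic helix-loop-helix factors is spelled CACGTG.
4933427D06Rik, plus strand, chr6:89045854-89046103: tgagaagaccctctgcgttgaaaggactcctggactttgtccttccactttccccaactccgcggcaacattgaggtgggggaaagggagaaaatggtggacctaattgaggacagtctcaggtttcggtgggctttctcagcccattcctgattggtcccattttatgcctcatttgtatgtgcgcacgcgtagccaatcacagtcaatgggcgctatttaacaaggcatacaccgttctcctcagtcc
Clec5a, minus strand, chr6:40535805-40536054: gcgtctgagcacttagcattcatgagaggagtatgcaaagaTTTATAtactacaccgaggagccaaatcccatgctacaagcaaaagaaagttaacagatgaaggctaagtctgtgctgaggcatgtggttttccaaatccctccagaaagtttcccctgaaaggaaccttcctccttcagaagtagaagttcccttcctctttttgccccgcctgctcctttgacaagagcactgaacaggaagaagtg
Hey2, minus strand, chr10:30562608-30562857: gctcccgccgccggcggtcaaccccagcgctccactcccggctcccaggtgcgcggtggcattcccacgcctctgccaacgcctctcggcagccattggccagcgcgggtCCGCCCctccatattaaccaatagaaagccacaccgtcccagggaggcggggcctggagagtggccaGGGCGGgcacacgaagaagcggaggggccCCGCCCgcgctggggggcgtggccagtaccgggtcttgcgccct
The stretch before 4933427D06Rik was 51.2% GC and held none of the 4 motifs. The stretch before Clec5a was 46% GC, with TATA box letters on the opposite strand at position -209 from the start. The stretch before Hey2 was 72.4% GC with 25 CpG dinucleotides, and it held Sp family letters at positions -140, -73 and -44. These matches are letters only and do not show that a factor was bound.

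Members ranged from 66.8% to 100% of the gene body inside regions, with a median of 75.1%. The median over all eligible genes was 26.2%, with quartiles of 17.4% and 35%, and 214 eligible genes held no region. Of the members, 18 reached 90% or more, 62 reached 80% or more, and 48 lay under 70%. The next 200 genes in the ranking had a median of 61.9%. The ranking was continuous at its limit. The last members were 1700016D06Rik at 66.89%, Riok2, a kinase of small ribosomal subunit maturation, at 66.83%, and Fbxw16, an F-box protein gene, at 66.80%. The first genes outside were B3galt1, a galactosyltransferase gene, and Ctsc, which encodes the lysosomal protease cathepsin C, both at 66.76%. Pctp, which encodes a phosphatidylcholine transfer protein, followed at 66.68%.

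**Figure D1:**
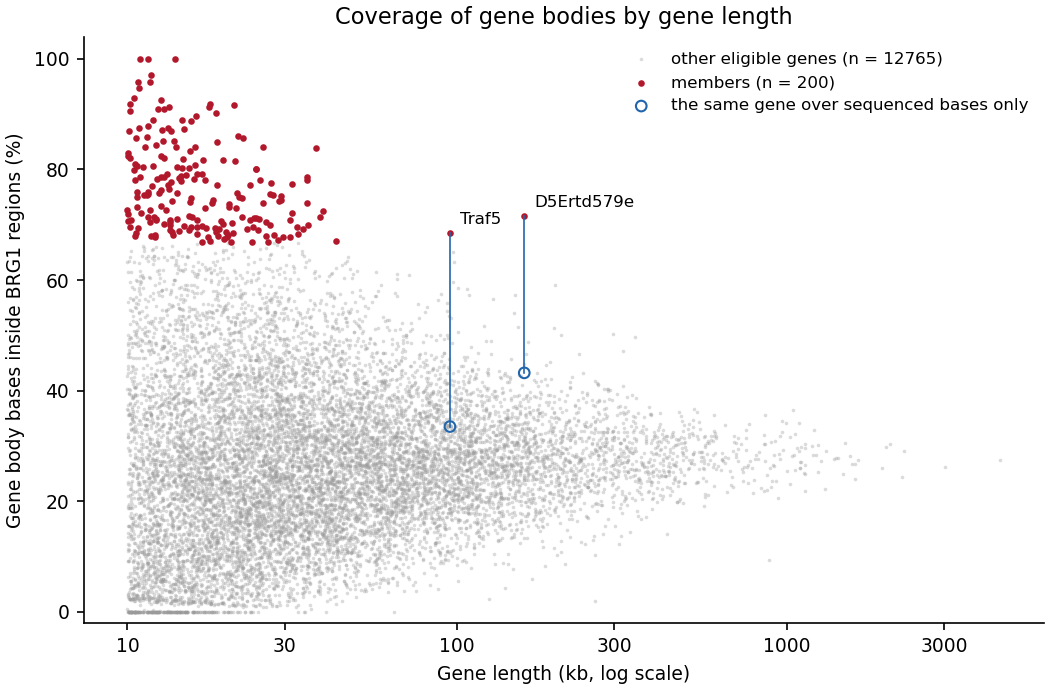
Percent of gene body bases inside BRG1 regions (vertical axis) against gene length in kb (horizontal axis, log scale) for 12965 eligible genes, with the 200 members in red. Open blue circles give Traf5 and D5Ertd579e over sequenced bases alone, at 33.5% and 43.2%, below the lowest member at 66.8%.

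Only 3 eligible genes lay wholly inside a single region, a share of 0.0231%. Such genes are covered whole, so the rule made all 3 of them members. They were 4933427D06Rik inside a region of 14790 bp, Ambp inside a region of 15000 bp and Clec5a inside a region of 12630 bp. Ambp encodes the liver-made precursor of alpha-1-microglobulin and bikunin, and Clec5a encodes a C-type lectin receptor of myeloid cells. Spata2, an adaptor in ubiquitin signalling, followed at 97% in 2 regions. 4933430H15Rik and Pcyox1l, the latter a prenylcysteine oxidase-like gene, had 95.9% and 95.8% in 3 regions each.

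Cox4i2, at 94.7%, encodes an isoform of a cytochrome c oxidase subunit and was covered by a single region of 12210 bp that began after the gene's start. Hey2, at 93.0% in 3 regions, encodes a Notch-responsive transcriptional repressor of ventricular development. Arrdc3, at 92.7% in 5 regions, encodes an arrestin-domain protein. Ttc22, a tetratricopeptide repeat gene, stood at 91.9% in 4 regions. The map of regions over the 10 most covered genes shows a region crossing at least 1 end of each gene.

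**Figure D2:**
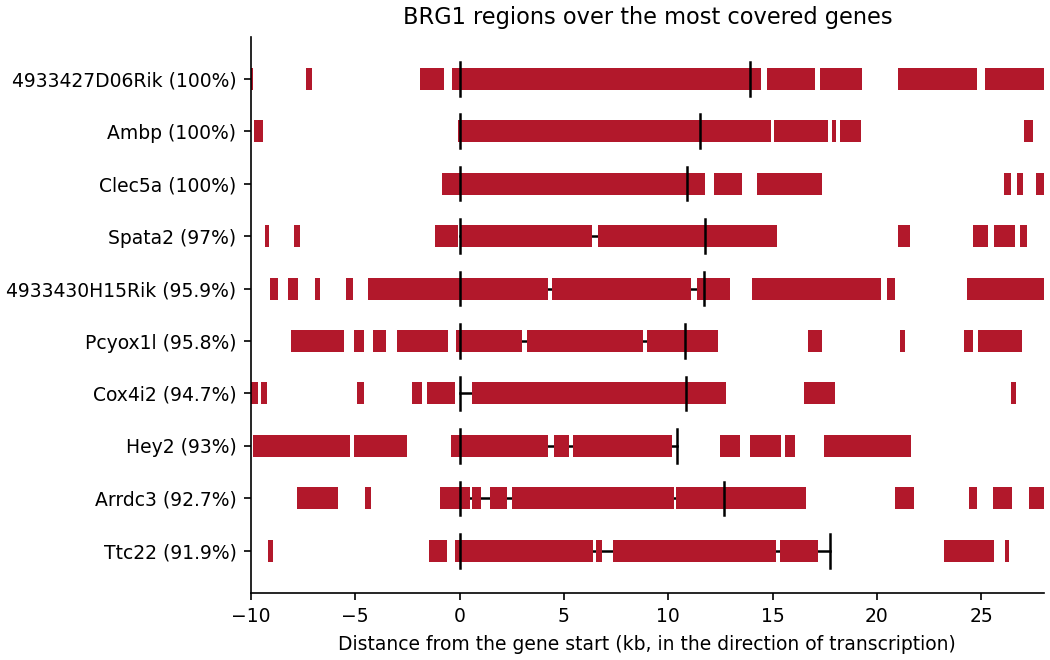
BRG1 regions (red bars) over the 10 most covered genes, by distance from the gene start in kb in the direction of transcription, with black ticks at the gene start and end. A single region spans the whole gene in 4933427D06Rik, Ambp and Clec5a, and 1 to 5 regions cover the other genes.

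Most members were not covered by a single region. Of the 200 members, 11 held 1 region, 179 held 2 to 10 regions and 10 held more than 10. The median member held 5 regions, the longest with a median of 7500 bp, against 8 regions and a longest region of 3660 bp over all eligible genes. At least 1 region of 10 kb or more was found in 40 members, 20%, and in 6.22% of all eligible genes. Regions of that length held 19.1% of the covered bases of members and 4.33% of those of all eligible genes. The longest uncovered stretch inside a member had a median of 1983 bp, against 10261 bp over all eligible genes. Region length and gaps are part of the coverage that the members were chosen by, so these values describe how the percent was made up.

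Members were short genes. Their median length was 15420 bp (95% interval of the median 14155 to 16296 bp), against 33573 bp over all eligible genes. The 200 least covered genes were also short, with a median of 13436 bp, and the next 200 genes had 18740 bp. Genes of 10 to 20 kb supplied 140 members, 3.85% of the 3637 eligible genes of that length, and genes of 20 to 50 kb supplied 58, or 1.23% of 4705. The classes of 50 to 100 kb and over 100 kb supplied 1 member each, of 2342 and 2281 eligible genes. The median percent differed little between these classes, at 23.7%, 25.7%, 26.6% and 27.6% from the shortest to the longest. Its spread narrowed with length: the 95th percentile was 63.2% in the shortest class and 39.6% in the longest, and the 5th percentile rose from 0% to 16.2%.

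The members of the longest classes need a separate reading. D5Ertd579e, at 159827 bp, stood at 71.7% and rank 126, and Traf5, an adaptor of TNF receptor signalling, at 95130 bp, stood at 68.6% and rank 175. In mm9, 80100 bases of D5Ertd579e and 50200 bases of Traf5 are unsequenced, and all of them lay inside regions of the list, the longest of 80370 bp and 51660 bp. No read can map to unsequenced bases. Over sequenced bases alone, D5Ertd579e had 43.2% and Traf5 33.5%, which would have ranked them 1589 and 3656. They are the members in which unsequenced bases inside regions made up over 10% of the gene, out of 7 such eligible genes. Any unsequenced base was found in 4 members, 2%, and in 0.563% of all eligible genes.

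The next longest members were sequenced without a gap. Ptplad2, a gene of fatty acid elongation, had 67% of 42785 bp in 7 regions. Crispld1, which encodes a secreted cysteine-rich protein, had 72.5% of 39300 bp in 12 regions. Napb, which encodes a SNAP protein of vesicle fusion, had 71.5% of 38483 bp in 12 regions.

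The first base of the gene lay inside a region in 103 members, 51.5% (95% Wilson interval 44.6 to 58.3%), and in 24.4% of all eligible genes. The last base lay inside a region in 125 members, 62.5% (55.6 to 68.9%), and in 27.6% of all eligible genes. These bases belong to the gene body that the rule used. Both ends were covered in 61 members, 30.5%, against 7.01% of all eligible genes, and neither end in 33 members, 16.5%, against 55.1%. A region reached into the 250 bases before the start in 120 members, 60%, against 31.3% of all eligible genes. The window from 250 bases before to 50 after the start lay wholly inside a region in 84 members, 42%, against 17.5%. The Wilson intervals reflect the number of genes counted and nothing else, and neighbouring genes are not independent.

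Within members, coverage was lower at both ends than in the middle. Over 20 equal parts of the gene, mean coverage was 58.6% in the first part, 85.2% in the thirteenth and 64.4% in the last. The next 200 genes were also lower at their ends, at 48.8%, 67.5% and 50.2% in those parts. In the other 12765 eligible genes each of the same parts had 26.1%. The 20 parts make up the gene body by which members and the next 200 genes were ranked. Their levels and pattern along the gene are therefore a description only. Members on the plus strand numbered 93, or 46.5%, against 49.9% of all eligible genes.

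Outside the gene body, the 10 kb on either side was not used by the rule. The median share of these flanks inside regions was 32.6% in members (29.6 to 34.8%), 27.7% in the next 200 genes and 24.5% over all eligible genes. It was 14.8% in the 200 least covered genes. Flank coverage was above the eligible median in 143 members and below it in 57. At least 50% of the flanks was covered in 37 members, 18.5%, against 8.58% of all eligible genes. Leaving out flank bases that lay in another member gave a median of 31.3%. Flanks and gene bodies can share regions, since 61 members had both ends inside regions, mostly different ones, and 106 had 1 end inside a region. The flanks are therefore not an independent measure.

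Farther out the members were close to the other genes. From 10 to 20 kb before the start, mean coverage was 24.9% in members and 25.9% in the other eligible genes, and from 10 to 20 kb after the end it was 22.4% and 25.8%. In 10 kb bins from 10 to 200 kb on both sides, members ranged from 22.4% to 29.1% and the other eligible genes from 25.7% to 26.7%. Among members, Ripk4, Ces1g and Gm11146 mark the extremes and were chosen after their values were seen. Ripk4, a kinase gene of epidermal differentiation, had 1.2% of its flanks covered at 75% of the gene body, and Ces1g, a carboxylesterase gene, 2.76% at 78.1%. Gm11146 had 91.3% of its flanks covered at 77.8% of the gene body.

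**Figure D3:**
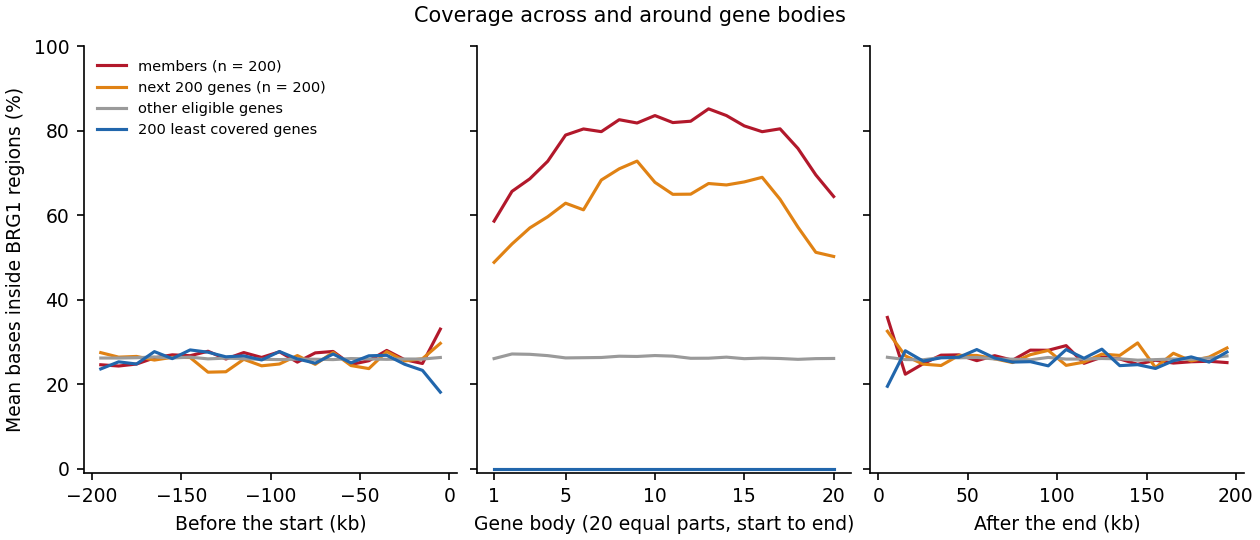
Mean percent of bases inside BRG1 regions (vertical axis) in 10 kb bins to 200 kb before the start, in 20 equal parts of the gene body and in 10 kb bins to 200 kb after the end, for the members, the next 200 genes, the other eligible genes and the 200 least covered genes. Members stand at 33% and 35.8% in the bins next to the gene and within 22.4% to 29.1% farther out.

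Exons of members were covered at a median of 73.4%, coding bases at 79.4% and introns at 77.0%. Over all eligible genes these medians were 22%, 22.4% and 26.1%. Exons, coding bases and introns are parts of the gene body that the rule used. Higher values in members follow from the rule and are given as a description only. All coding bases lay inside regions in 36 members, 18%, and in 0.841% of all eligible genes. The coding bases were more covered than the gene as a whole in 107 members, 53.5%, against 41.6% of all eligible genes and 53.5% of the next 200 genes. Under 20% of coding bases were covered in 4 members, 2%, against 45.8% of all eligible genes. These 4 are named here after their values were seen. Olfr78, an olfactory receptor gene also expressed in the carotid body, had 77.1% of its gene body and 0% of its coding bases inside regions. Nfe2, a transcription factor gene of megakaryocytes, had 15.4% of its coding bases covered, and the zinc finger genes Zfp948 and Zfp266 had 16.2% and 19%.

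Base composition was not used by the rule. The median GC content of members was 45.6% (44.4 to 46.2%), against 44.5% over all eligible genes and 47.8% in the 200 least covered genes. In the 2 length classes that held nearly all members, the order was the opposite. Members had 46.2% and the other eligible genes 47.1% at 10 to 20 kb, and at 20 to 50 kb the medians were 43.8% and 44.8%. These classes held 140 and 58 of the members, and among the other eligible genes the shorter class had the higher GC content. The single members of 50 to 100 kb and of over 100 kb had 46.8% and 44.7%, above the 43.3% and 42.5% of the other genes of their classes. Over 5 equal groups of eligible genes by GC content, without regard to length, the members numbered 38, 31, 40, 43 and 48 from low to high. The ratio of observed to expected CpG had a median of 0.247 in members, 0.226 over all eligible genes and 0.252 in the 200 least covered genes, which were also short. Gene density around members was close to that of all eligible genes, with a median of 14 other protein-coding starts within 500 kb against 13. Across the 12965 genes, the percent covered had a Spearman's rho of -0.09 with GC content, 0.10 with gene length and 0.15 with flank coverage. These correlations are across genes of a single list, in which neighbouring genes share regions, and genes are not independent replicates.

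Repeated sequence limits where reads can be placed, since the authors kept reads with at most 2 sites in the genome. As a measure, 32-mers were sampled every 500 bp of each gene, and those with more than 2 sites in mm9 were counted. Their share had a median of 2.94% in members (2.00 to 3.70%) and 5.12% over all eligible genes. Short genes have few sampled 32-mers, and the difference was smaller within length classes. At 10 to 20 kb the medians were 2.82% in members and 4% in the other eligible genes, and at 20 to 50 kb they were 3.1% and 4.92%. In the 200 least covered genes the median was also 4%. More than 10% of 32-mers were repeated in 20 members, 10% (6.57 to 14.9%). The share was 20.7% of all eligible genes and 16.5% of the 200 least covered genes. The next 200 genes were close to the members, with a share of 11% and a median of 3.57%. Of 5 equal groups of eligible genes by this share, without regard to length, the lowest held 91 members and the highest 20. In members, 3.92% of 5385 sampled 32-mers inside regions were repeated and 5.78% of 1801 outside regions. Over all eligible genes these shares were 5.53% and 9.81%. Its part in the choice of members was not tested.

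Members with much repeated sequence were few. Vmn2r43, a vomeronasal receptor gene, had 84.9% repeated 32-mers and Klra8, which encodes the Ly49H receptor of natural killer cells, had 36.7%. Reads from near-identical copies of such genes cannot be assigned with certainty, so the coverage of Vmn2r43 at 70.8% and of Klra8 at 88.9% is uncertain.

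The letters at gene starts were compared over windows from 250 bases before to 50 bases after the start. TATAAA was found in 30 members, 15% (10.7 to 20.6%), against 8.87% of all eligible genes and 10.5% of the next 200 genes. GGGCGG was found in 84 members, 42% (35.4 to 48.9%), against 53.4% of all eligible genes and 49.0% of the next 200 genes. TTGCNNAA was found in 13 members, 6.50%, against 9.47% of all eligible genes, 12% of the next 200 genes and 10.5% of the 200 least covered genes. CACGTG was found in 19 members, 9.50%, against 8.85% of all eligible genes, 8.50% of the next 200 genes and 5.50% of the 200 least covered genes. In the 200 least covered genes, TATAAA was found in 10.5% of windows and GGGCGG in 41.5%, so a lower share of GGGCGG was also seen at the opposite end of the ranking. None of these differences was tested.

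**Figure D4:**
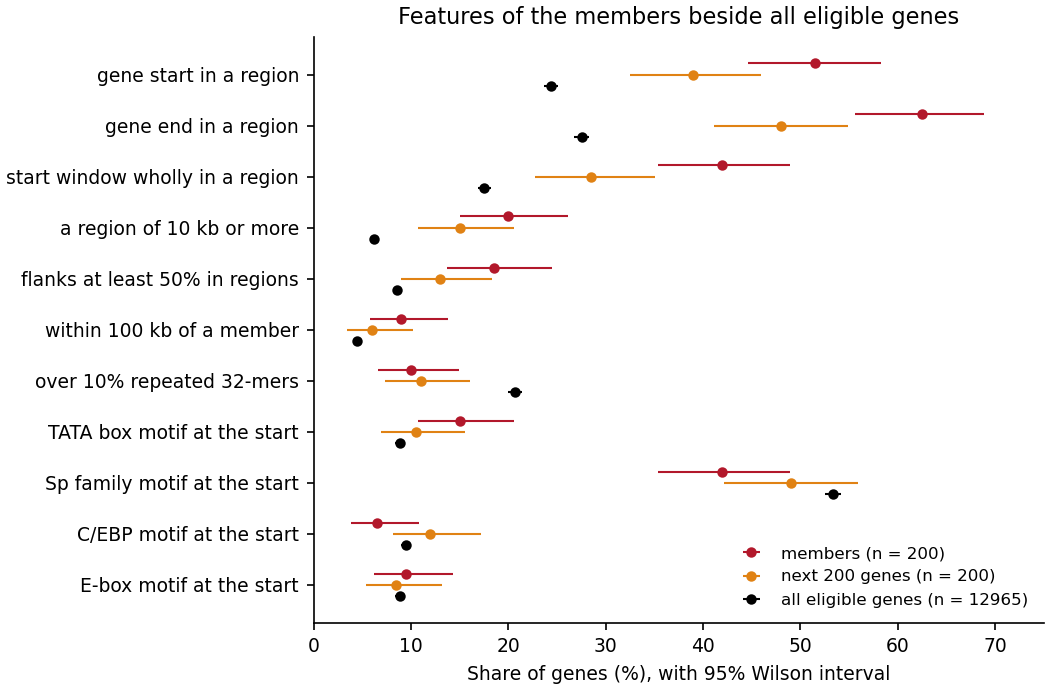
Share of genes in percent (horizontal axis, points with 95% Wilson intervals) with each feature, for 200 members, the next 200 genes and all 12965 eligible genes. Gene starts lie inside regions in 51.5% of members and 24.4% of all eligible genes, and over 10% repeated 32-mers occur in 10% and 20.7%.

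Every autosome held members. Of the 200 members, 18 lay within 100 kb of another member, 9%, and 4.42% of all eligible genes lay within 100 kb of a member. The 18 formed 9 pairs and no larger group. The pair with the highest mean coverage was F3 and 4930432M17Rik on chromosome 3, at 87.9% and 75.5%. F3 encodes tissue factor, which starts the extrinsic pathway of coagulation. The zinc finger genes Zfp865 and Zfp579 on chromosome 7 had 87.1% and 76.2%. On chromosome 1, Adamts4, which encodes an aggrecan-cleaving protease, had 90.6% and Pcp4l1 had 69.2%. Tada1 and Pogk, chosen after their values were seen, overlapped. Tada1, a subunit gene of the SAGA coactivator complex, shared 9000 bp and the regions in them with Pogk, and the genes stood at 78.9% and 78.1%. Chromosome 1 held 22 members, 2.46% of its 895 eligible genes, and chromosome 18 held 3, 0.840% of 357.

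Lists of named genes were looked up among the members, which make up 1.54% of all eligible genes. The lists held genes of the heart and its cells, SWI/SNF subunit genes, and synapse and neuronal adhesion genes. Of 115 eligible genes in 10 lists of named genes, 1 was a member, 0.870%, and no difference from all eligible genes can be read from a count of 1. The highest and lowest genes of these lists, and Smarca4 and Atp2a2, were chosen after their values were seen. The member was Kcnj2, which encodes the inward rectifier potassium channel that holds the resting potential of cardiomyocytes. Kcnj2 stood at 80.6% and rank 56, with 5 regions, the gene start inside a region and 48.9% of its flanks covered. The other cardiac calcium and ion channel genes lay lower, with Atp2a2, the calcium pump of the sarcoplasmic reticulum, at 50.7% and Casq2, its calcium store protein, at 22.1%. The list's 12 eligible genes had a median of 28.8%.

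The 12 eligible cardiac contractile genes had a median of 33.2%, and 10 of them lay above the median of all eligible genes. Mybpc3, which encodes cardiac myosin-binding protein C, was closest to the members at 64.8% and rank 229, and Myh7, the slow myosin heavy chain gene, was lowest at 5.89%. The 14 matrix and fibroblast genes had a median of 32.6%, from Col1a2 at 61.2% to Col1a1, which held no region, although the products of both genes form type I collagen. The 7 cardiac transcription factor genes had a median of 31.2%, led by Gata6 at 38.6%. The 8 epicardial and mesothelial genes had the highest list median, 44.3%, and the 6 smooth muscle genes the lowest, 18.3%. The epicardial and mesothelial genes ranged from Upk1b at 10.6% to Tbx18 at 61.9%. Most of them, such as Tbx18, Aldh1a2 and Wt1, are named by the study in its BRG1 ChIP-seq results. That list is therefore not independent of these data. The 10 endothelial genes had a median of 23.8% and the 8 leukocyte genes 25%, the latter led by the B cell gene Ms4a1 at 65%. The 20 genes of SWI/SNF subunits had a median of 25.7%, with Smarca4, which encodes BRG1 itself, at 44.4%. The 18 synapse and neuronal adhesion genes had a median of 27.3%.

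**Figure D5:**
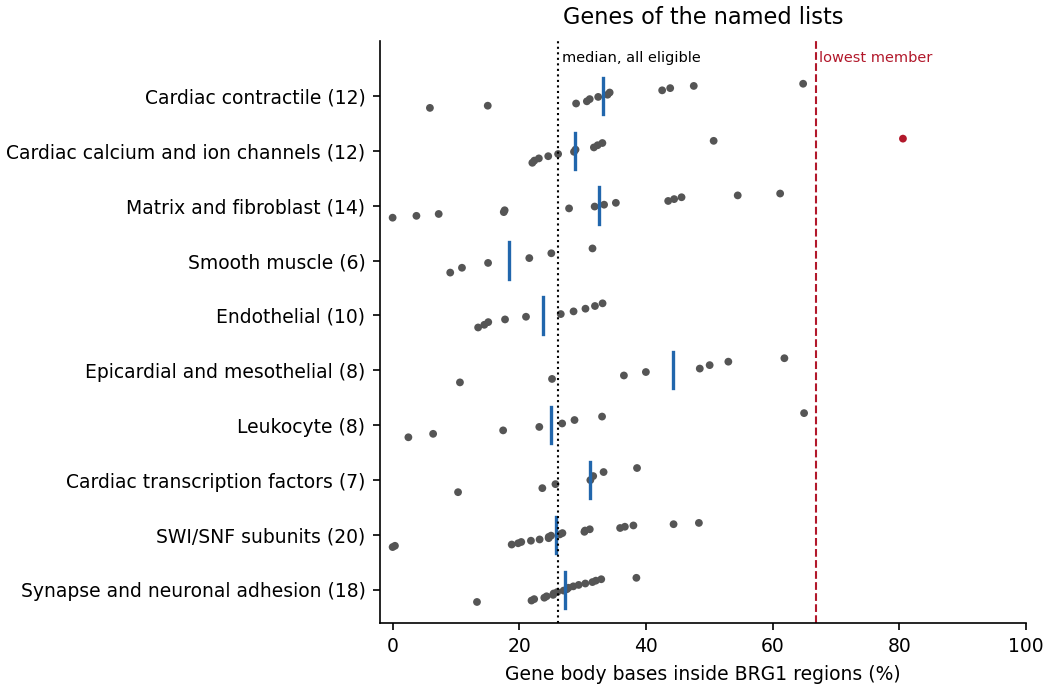
Percent of gene body bases inside BRG1 regions (horizontal axis) for each eligible gene of 10 lists, with the number of eligible genes in parentheses, list medians as blue bars, the median of all eligible genes (26.2%) as a dotted line and the lowest member (66.8%) as a dashed line. Kcnj2, at 80.6%, is the only member among 115 genes.

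Of 12 genes that the study names in its BRG1 ChIP-seq results, 10 reached 10 kb and none was a member. Genes that it names elsewhere are not counted here. The highest were Tbx18, an epicardial transcription factor gene, at 61.9% and rank 302, and Col1a2 at 61.2%. Aldh1a2, which encodes the retinoic acid-synthesizing enzyme of the epicardium, had 50.1%, Myh6 42.6%, Gpm6a 40.0%, Bnc1 36.5% and Acta2 31.6%. Wt1, the transcription factor gene used as a marker of the activated epicardium, had 25.2%, near the median of all eligible genes. Upk1b and Myh7 had 10.6% and 5.89%. A gene body with low coverage may still hold regions: Wt1 held 12 and Upk1b 4. For Myh7 the study describes BRG1 binding upstream of the start, which lies outside the gene body and does not enter this percent. For Wt1 it describes an element within an intron. The percent of the gene body does not measure such single sites.

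Gene families, taken by symbol, gave small numbers of members, to be read beside the 1.54% of all eligible genes that were members. That share depended on gene length, at 3.85% for genes of 10 to 20 kb and 1.23% for genes of 20 to 50 kb. The families were not compared within length classes, so a family of short genes may differ through length alone. Zinc finger genes with a Zfp symbol supplied 11 members of 251 eligible genes, or 4.38%, which were 5.50% of members and 1.94% of eligible genes, and the family's median of 26.6% was close to the 26.2% of all eligible genes. Its most covered members were Zfp865 at 87.1%, Zfp948 at 86% and Zfp957 at 78.7%. Serpins supplied 4 of 39 eligible genes, 10.3%. They were Serpinb6d at 91.8%, Serpind1, which encodes the thrombin inhibitor heparin cofactor II, at 84.5%, Serpini2 at 75.5% and Serpinb13 at 68.1%. The median of all 39 serpins was 26.8%.

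Subunits of NADH dehydrogenase and cytochrome c oxidase supplied 3 of 25 eligible genes, or 12%. They were Cox4i2 and the complex I genes Ndufb5 at 78% and Ndufa8 at 72.7%. Olfactory receptors supplied 2 of 16, or 12.5%, Olfr78 and Olfr406-ps, the latter at 67.9% and named as a pseudogene by its symbol. Vomeronasal receptors supplied 2 of 114, or 1.75%, near the share over all eligible genes. They were Vmn2r43 and Vmn2r73, the latter at 69.3%. C-type lectin and killer cell lectin-like genes supplied Clec5a and Klra8 of 47, or 4.26%. The shares of lists with 2 to 4 members rest on few genes and were not tested. Solute carriers supplied 2 of 301, or 0.664%, below the share over all eligible genes. They were the kidney amino acid transporter gene Slc7a9 at 81.7% and the dicarboxylate transporter gene Slc13a2 at 71%.

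Lists with a single member were cytochromes P450 with Cyp2g1 at 78.3% of 71 genes, ADAM and ADAMTS proteases with Adamts4 of 43, potassium channels with Kcnj2 of 68, ribosomal proteins with Rps15a at 68% of 11, and sulfotransferases and glutathione transferases with Sult1d1 at 68.8% of 25. Lists without a member included 19 UDP-glucuronosyltransferases, 35 cadherins and protocadherins, 9 keratins, 41 collagens, 49 Gpr receptors and 6 Hox genes. Bitter taste receptors had no eligible gene. RIKEN clone names supplied 17 members, 8.50% of members and 5.68% of eligible genes, Gm symbols supplied 6 of 383 eligible genes, 1.57%, close to the share over all eligible genes, and BC symbols 4 of 69, or 5.80%.

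Further members with known roles in muscle, inflammation or energy metabolism are given as examples that were chosen after their values were seen. The share of genes with such roles was not counted among members or over all eligible genes, so the examples show no theme. Cav3, which encodes the caveolin of muscle membranes, had 91.3% in 3 regions, and all its coding bases were covered. Irf4, a transcription factor gene of lymphocytes and macrophages, had 91.4% in 6 regions with 58.8% of its flanks covered. Mmp13, a collagenase gene, had 87.6%, and Casq1, the calsequestrin gene of skeletal muscle, had 72.7% in a single region. Among genes of mitochondrial and cytosolic energy metabolism, Idh3a had 74.5%, Mdh1 74.8% and Polg, the mitochondrial DNA polymerase gene, 67.7%. A list of regions does not show whether any of these genes was transcribed in the hearts.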

How the data were processed

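Hearts primed with PBS or Tβ4 and then injured gave 8 BRG1 ChIP and input libraries in 4 groups. Per the submitters' processing notes, reads were mapped with Bowtie 1.0.0 to mm9 and regions were called with MACS2 2.0.10. Which MACS2 function made the list is not known: the methods name its bdgcomp function, and the list is named like an output of a comparison between conditions. The deposited values are region starts and ends in bp, and the sources used here do not say whether or how the 2 ChIP libraries were merged. Genes came from the GENCODE annotation of mm9. Covered bases and regions per gene were counted with numba 0.67.0, pandas 2.3.3, numpy 2.4.6, scipy 1.17.1 and pysam 0.24.0 in Python 3.11.15. The counts of covered bases and regions were tested on simulated regions and equalled those of bedtools 2.31.1 for 12965 of 12965 genes. Medians have 95% binomial order-statistic intervals and shares have Wilson intervals. No test was run. The genome sequence used here carries no soft-masking, so the planned share of masked repeats was not computed.

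The members and lists were chosen with earlier results of these data known. Genes named by rule were the 10 most covered members, 3 on each side of the limit and the 5 longest members. The rule also took members of named lists (the 3 most covered of lists with over 10) and the 3 neighbour pairs with the highest mean coverage. It further took the eligible genes that the study names in its ChIP-seq results. Other genes were chosen after their values were seen, as stated where they appear. Counts of long regions, gene density, uncovered stretches, repeated 32-mers inside and outside regions, the coverage of sequenced bases alone and the exon condition on printed sequences were added after the data were seen.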

Additional observations from a re-analysis of the deposited data

How the results depend on the processing

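No paired analysis was possible because the list names no replicate and no result comes from a test. Of 84 values, from 7 results under 12 alternatives, 63 stayed within 1.5 times the main count or inside the 95% interval of the main median, and 21 did not. With genes of at least 5 kb, 66 members remained in the top 200, whose medians were 87.7% of the gene body, 47.1% GC, 35.8% of the flanks and 8285 bp. With genes of at least 20 kb, 60 remained, the medians were 61.9%, 43.7%, 29.2% and 28120 bp, and 11 lay within 100 kb of another. These sets differ by construction, since the limit on length decides which genes are ranked. With 5 kb added on each side, 130 remained, with medians of 70.9% of the gene body, 43.8% of the flanks, which the ranking then used in part, and 16524 bp. Ranking by regions per kb kept 8 members, with medians of 44.1% and 49.4% GC and with 30 within 100 kb of another, so the members rest on bases covered and not on the number of regions. The cause of the shifts in GC content and in neighbours was not tested. Joining regions within 500 bp raised the median coverage to 79.3%, and taking every gene type raised it to 77.3%. Leaving out unsequenced bases or regions over 20 kb kept 198 members each. Depth is unknown, and 1 list gives no spread between hearts.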
